A study of Mus musculus with 81 samples.

Results

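The genes described here belong to the B-lymphoid programme and were followed through sorted mouse macrophages, monocyte-type cells and progenitors. They are Cd79a, Cd79b, Cd22, Blnk, Vpreb1, Igll1, Ebf1 and Pax5, chosen by symbol, each read by its brightest probe among those annotated to that symbol alone. All 8 were on the array, with 1 such probe each, out of 22180 genes named this way. RNA was hybridised to 81 Affymetrix arrays, which hold 80 samples in 27 groups because 1 sample was run on 2 arrays. Of these groups, 14 were wild type (41 samples) and 13 carried the Irf8 knockout (39 samples), with 3 samples a group except for 1 group of 2. Irf8 encodes a transcription factor of the myeloid and lymphoid lineages.

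Yolk sac gave wild-type E8 progenitors and 2 fractions at E9.5, A1 and A2, which the labels also place among erythro-myeloid progenitors. Both E9.5 fractions came from wild-type and knockout embryos, whereas E8 was wild type only. Wild-type and knockout embryos at E14 gave brain microglia, liver CD11bhigh cells, liver Kupffer cells, kidney CD11bhigh cells and kidney F4/80high cells. Mice of both genotypes at 6 weeks gave the same 5 kinds of cell and epidermal Langerhans cells. The titles of the wild-type Langerhans samples carry GFP+, and those of the knockout Langerhans samples do not. The strain and the allele of the knockout were not given in the sources used here, and the labels do not say that samples of a group came from separate animals. P-values therefore measure the spread between these samples.

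B cells read antigen through a surface immunoglobulin whose signal is carried by the Cd79a and Cd79b proteins. Before a light chain exists, the pre-B-cell receptor uses a surrogate light chain made of the Vpreb1 and Igll1 proteins. Blnk is an adaptor that the receptor's kinases phosphorylate, Cd22 is an inhibitory sialic-acid-binding co-receptor, and Ebf1 and Pax5 are the transcription factors that specify and commit the B lineage. Several of these genes are not restricted to B cells, Blnk being also used by macrophages.

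Values are log2 signals, so a difference of 1 is a doubling of signal, and signals of different probes are not set against each other. A gene was tested if 2 or more arrays read above a floor of 3.04, the median of all deposited values. Of the 8 genes, 6 passed this floor, and Vpreb1 and Igll1 did not. Called means an adjusted p below 0.05 in a limma fit of all samples, with Benjamini-Hochberg adjustment over the 17099 genes tested. Overlap of samples between groups describes those samples only, as its share over all genes is not given. A difference from a group whose mean lies under the floor is a fitted value and depends on signal near background, so the difference to the floor is also given for the main cases, as a lower bound. In bulk RNA, more cells of a B-lymphoid type and more of a transcript per cell cannot be told apart.

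The labelled populations were checked on their defining genes. Clec4f, a Kupffer cell lectin, was at 10.33 ± 0.11 (SD, n = 3) in wild-type and 10.06 ± 0.32 (n = 3) in knockout adult Kupffer cells, against 3.90 and 3.82 in adult liver CD11bhigh cells. Tmem119 marked adult microglia (9.11 and 8.55 in wild type and knockout) and Cd207, langerin, marked Langerhans cells (11.60 and 11.43). At E14, Clec4f averaged 7.98 in wild-type and 4.66 in knockout E14 Kupffer cells, and Tmem119 7.79 in wild-type and 5.89 in knockout E14 microglia. Kit, a progenitor receptor, was at 6.73 in E8 progenitors and 8.54 in wild-type A1. Ptprc, the pan-leukocyte Cd45 gene, averaged 2.68 in E8 progenitors, below the floor, and 8.41 in wild-type A1. Irf8 signal averaged 8.76 in knockout and 9.45 in wild-type adult liver CD11bhigh cells, and the part of the gene its probe reads was not given, so it does not check the genotype. Replicate 3 of knockout A1 and replicate 3 of wild-type adult Kupffer cells stood apart from their groups in several of the genes below. Comparisons of the tested B-lymphoid genes that rest on them are given with and without them. Results of the marker lists are given only with them.

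Cd79a, a receptor signalling chain, had a mean above the floor in 14 of 27 groups. It was highest in knockout Kupffer cells of the adult liver (7.29), followed by knockout adult liver CD11bhigh cells (6.72), wild-type adult Kupffer cells (6.39), wild-type A1 (6.21), knockout A1 (5.71) and wild-type adult kidney CD11bhigh cells (4.77). Its lowest mean was in wild-type E14 microglia (2.54), and no 2 neighbours in the order of the 27 means had separate samples. Cd79b, its partner chain, was above the floor in all 27 groups, from 3.41 in E8 progenitors to 8.19 in knockout adult kidney F4/80high cells. Signal for the Cd79b probe was thus present in populations where Cd79a lay below the floor.

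Cd22 was above the floor in 26 groups, with its highest mean in knockout adult kidney CD11bhigh cells (7.08) and its lowest in wild-type A2 (3.03). Blnk was above the floor in 27 groups. Its highest mean was in wild-type adult microglia (9.78) and its lowest in knockout A2 (3.45). In the order of means, 4 neighbouring pairs for Cd79b and 5 for Blnk had separate samples, and none for Cd22.

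The transcription factor genes were detected in few places. Ebf1 exceeded the floor in 7 groups, led by knockout adult Kupffer cells (4.17), knockout A1 (4.03), knockout adult liver CD11bhigh cells (3.89) and wild-type A1 (3.82), with knockout E14 microglia next (3.82). Pax5 exceeded it in 11 groups and was highest in knockout adult Kupffer cells (5.07). Its lowest sample there was barely above the highest sample of the next group, wild-type A1 (mean 4.13). Wild-type adult Kupffer cells (4.12), knockout A1 (3.94) and knockout adult liver CD11bhigh cells (3.77) followed. The A1 fraction, adult Kupffer cells and knockout liver CD11bhigh cells thus held the 5 highest means of Pax5 and of Cd79a and the 4 highest of Ebf1.

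The surrogate light chain was not measurable anywhere. Vpreb1 had group means from 1.95 to 2.60 and exceeded the floor in 1 of 81 arrays. Igll1 had group means from 1.40 to 2.45 and exceeded it in 0 arrays. Both genes were left out by the floor. With no filter, limma called neither in any of the 25 comparisons (lowest adjusted p 0.349 for Vpreb1 and 0.227 for Igll1; 0 and 1 comparisons at an unadjusted p under 0.05). Values below the floor do not show that the transcripts are absent.

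**Figure D1:**
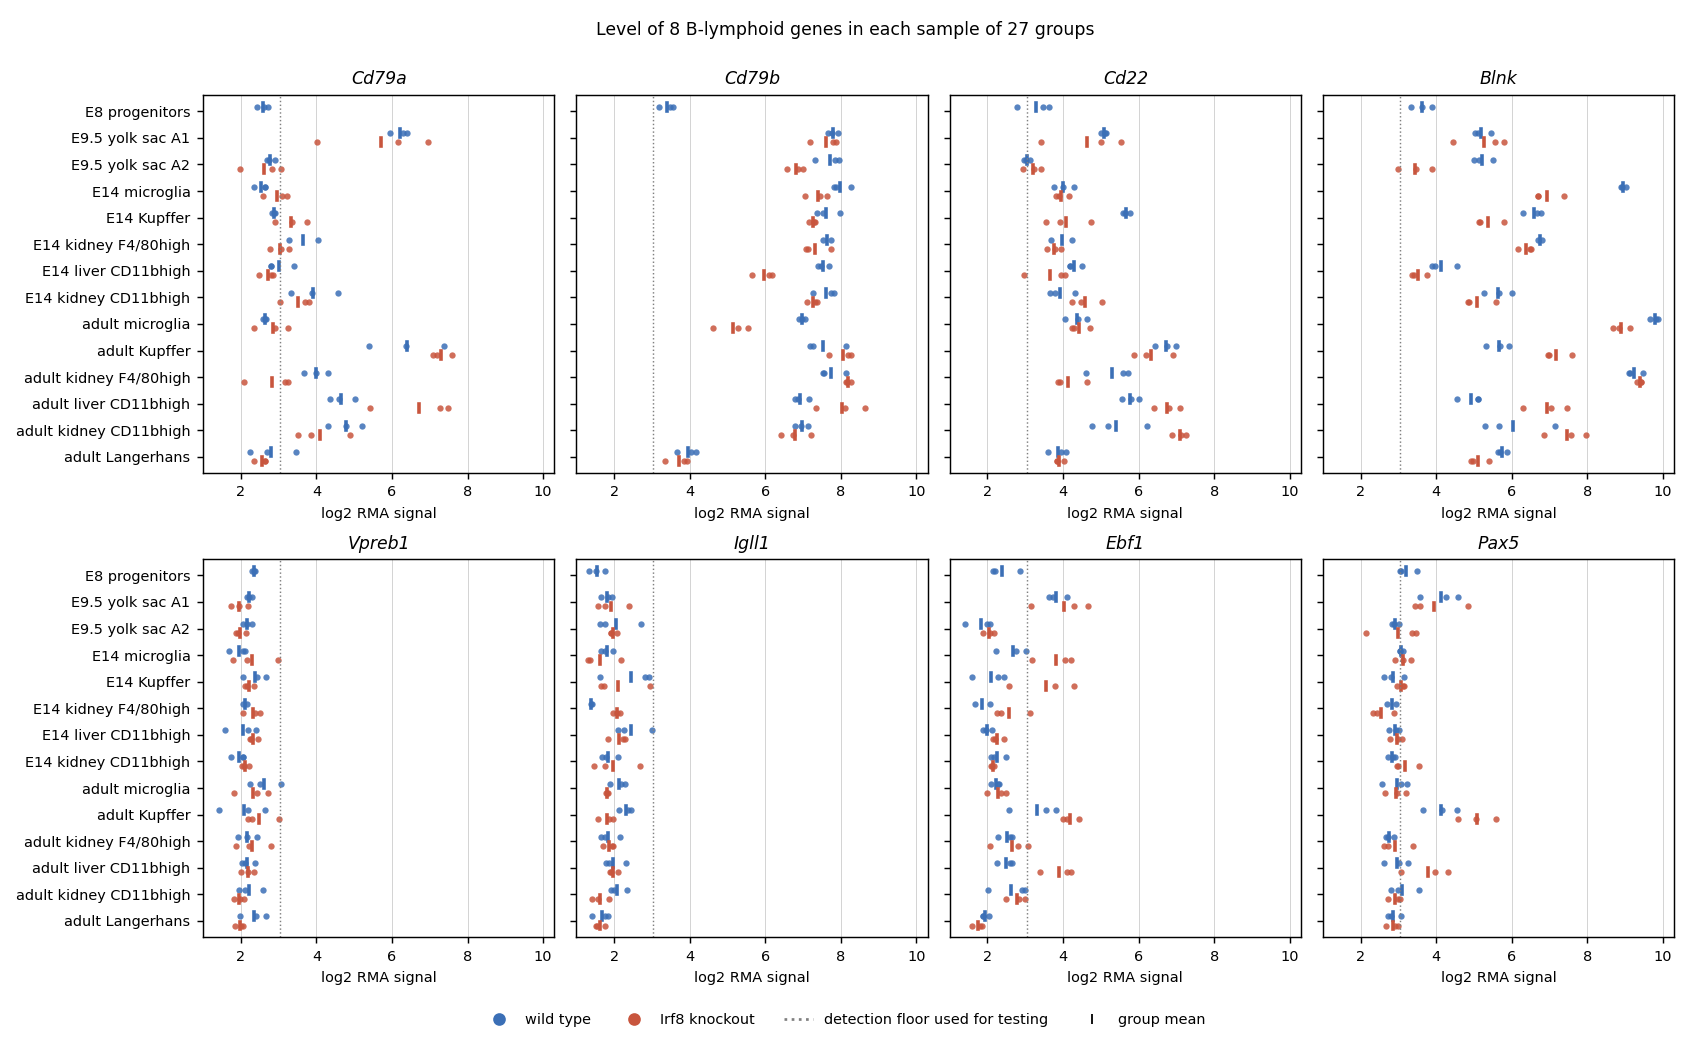
Log2 signal of each of the 8 genes (1 panel a gene) in every sample of the 27 groups, with points for samples and lines for group means; the dotted line is the floor of 3.04. The 5 highest means of Cd79a and Pax5 are in A1, adult Kupffer cells and knockout adult liver CD11bhigh cells, Cd79b is above the floor in all 27 groups, and Vpreb1 and Igll1 are under it in all of them.

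Promoter sequences are shown for Cd79a, Cd22 and Igll1 because these carry matches to the letters searched for and stand for a receptor chain, a co-receptor and a surrogate light chain. They run from 250 bases before to 50 after the annotated start, 5′ to 3′ on the gene's strand, from RefSeq on GRCm38.p6; the build behind the array values was not given in the sources used here. Capitals mark a match, on either strand, to the early B-cell factor core CCCNNGGG or to the E-box letters CAGGTG that E proteins of the B lineage can bind. Cd79a lies at chr7:24897247-24897546 on the plus strand, Cd22 at chr7:30878979-30879278 on the minus strand and Igll1 at chr16:16863936-16864235 on the minus strand.
Cd79a: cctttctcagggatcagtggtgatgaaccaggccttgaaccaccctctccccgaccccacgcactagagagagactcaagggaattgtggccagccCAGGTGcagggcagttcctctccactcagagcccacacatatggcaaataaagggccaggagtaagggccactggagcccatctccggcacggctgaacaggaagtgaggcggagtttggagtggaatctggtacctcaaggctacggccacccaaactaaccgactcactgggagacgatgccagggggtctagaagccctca
Cd22: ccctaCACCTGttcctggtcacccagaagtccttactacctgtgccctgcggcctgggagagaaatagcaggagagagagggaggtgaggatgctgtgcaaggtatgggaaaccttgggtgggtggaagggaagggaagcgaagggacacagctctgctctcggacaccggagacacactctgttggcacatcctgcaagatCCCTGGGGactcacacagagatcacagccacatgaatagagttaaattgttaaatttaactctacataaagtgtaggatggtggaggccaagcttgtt
Igll1: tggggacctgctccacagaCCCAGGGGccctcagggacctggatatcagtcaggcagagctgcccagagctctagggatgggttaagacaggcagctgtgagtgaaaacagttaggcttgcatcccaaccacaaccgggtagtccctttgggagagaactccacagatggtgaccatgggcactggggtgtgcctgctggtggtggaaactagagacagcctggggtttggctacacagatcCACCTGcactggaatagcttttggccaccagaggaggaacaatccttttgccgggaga
Counted from the annotated start, the core began at -48 in Cd22 and at -231 in Igll1, and these were 2 of the 7 genes with a promoter record. Of all 32851 promoters of this length, 13.7% held it. The E-box letters were in 5 of the 7 (Cd79a, Cd22, Blnk, Vpreb1 and Igll1) and in 20.2% of all promoters. A match is a run of letters, not a shown binding site. Igll1, with both matches, lay under the floor in all 27 groups. Cd79a, with a mean above the floor in 14 of them, had the E-box letters and no exact match to the core letters. An exact search misses sites that differ in a letter, so no match does not show that a site is absent.

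The sorted A1 fraction of E9.5 yolk sac gave B-lymphoid signal, and where the cells bearing it arose was not tested. From E8 progenitors to wild-type A1, all 6 tested genes were called higher, against 12.8% of all genes called higher in that comparison. Cd79a was at 2.42, 2.60 and 2.71 in the E8 samples and 6.30, 6.39 and 5.94 in wild-type A1. The E8 samples were under the floor, and the A1 mean was 9.0-fold above the floor (fitted log2 difference 3.64 ± 0.44 SE, adjusted p = 2.68e-10). Cd79b was at 3.55, 3.19 and 3.48 at E8 and 7.66, 7.93 and 7.77 in A1, a rise of 4.38 ± 0.24 (adjusted p = 4.85e-24). The groups were far apart for both receptor chains.

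Cd22 rose by 1.79 ± 0.33 (adjusted p = 1.46e-05), from 2.79, 3.63 and 3.47 to 5.0, 5.14 and 5.12. Blnk rose by 1.58 ± 0.30 (adjusted p = 2.38e-05), from 3.88, 3.32 and 3.63 to 5.11, 5.43 and 5.03. The transcription factor genes also rose. Ebf1 went from 2.19, 2.85 and 2.15, all below the floor, to 4.10, 3.72 and 3.63 (1.42 ± 0.32, adjusted p = 0.00038), a mean 0.78 above the floor. Pax5 went from 3.03, 3.49 and 3.07 to 3.56, 4.57 and 4.27 (0.94 ± 0.29, adjusted p = 0.0131). The median change of the 6 genes was 1.68, against -0.06 over all genes tested.

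Within E9.5, A1 and A2 split the genes into 2 kinds. In wild type, Cd79a, Cd22, Ebf1 and Pax5 were called higher in A1 than in A2, which is 4 of 6 tested genes against 5.7% of all genes called higher. Cd79a was at 2.75, 2.89 and 2.70 in A2, all under the floor, and at least 3.17 higher in A1 (fitted 3.43 ± 0.44, adjusted p = 6.44e-09). Cd22 was at 3.11, 2.97 and 3.02 in A2, a mean just under the floor, 2.05 ± 0.33 below A1 (adjusted p = 2.5e-06). Ebf1 was at 1.42, 2.07 and 1.99 in A2, under the floor, and at least 0.78 higher in A1 (fitted 1.99 ± 0.32, adjusted p = 2.48e-06). Pax5, also under the floor in A2, was at least 1.09 higher (fitted 1.23 ± 0.29, adjusted p = 0.00175). In the same wild-type comparison 7 of 15 T and NK genes were higher and 1 lower (list median 1.20), 6 of 16 endothelial genes higher and 1 lower, and 4 of 10 erythroid genes higher. The mature B-cell list gave 9 higher and 2 lower of 16 (median 1.12). The part of the other cell types' genes was not tested.

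Cd79b and Blnk were not called between the wild-type fractions. The Cd79b samples of A2 read 7.85, 7.95 and 7.31, overlapping with A1 (difference 0.08 ± 0.24, adjusted p = 0.918). Blnk in A2 read 5.13, 5.0 and 5.51, also overlapping (-0.02 ± 0.30, adjusted p = 0.985). Neither p shows that the fractions are equal.

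In the knockout, all 6 tested genes were called higher in A1 than in A2, against 1.88% of all genes called higher. Against A2 means under the floor, Cd79a was at least 2.67 higher (fitted 3.08 ± 0.44, adjusted p = 4.54e-07) and Ebf1 at least 0.99 (fitted 1.98 ± 0.32, adjusted p = 9.34e-06). Blnk was 1.82 ± 0.30 higher (adjusted p = 1.39e-05). Cd22 differed by 1.45 ± 0.33 (adjusted p = 0.00265), Pax5 by 0.96 ± 0.29 (adjusted p = 0.0472) and Cd79b by 0.81 ± 0.24 (adjusted p = 0.0425), with overlapping samples for Cd22 and Pax5. Without replicate 3 of knockout A1 all 6 were still called and Cd79a was 3.93 higher, whereas without its replicate 2 the count fell to 3, Cd79b, Cd22 and Pax5 being lost. There T and NK genes gave 1 higher and 1 lower of 15, endothelial genes 5 higher and 1 lower of 16 and erythroid genes 4 higher of 10, whose part was not tested.

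Within A1 no tested gene was called between genotypes, 0 of 6, which at 3.36% of all genes called in either direction is near the background. Replicate 3 of knockout A1 lay far below the other 2. Cd79a read 6.16, 6.95 and 4.01, Cd22 read 5.01, 5.52 and 3.40 and Ebf1 read 4.28, 4.66 and 3.15 in replicates 1, 2 and 3. The knockout minus wild-type difference for Cd79a was -0.50 ± 0.44 (adjusted p = 0.737) with replicate 3 and 0.34 (adjusted p = 0.901) without it. Cd22 moved from -0.44 to 0.18 and Ebf1 from 0.21 to 0.65 when it was left out, and neither was called.

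In A2, Blnk fell from 5.13, 5.0 and 5.51 in wild type to 3.46, 3.88 and 3.00 in knockout, with no overlap (-1.77 ± 0.30, adjusted p = 1.02e-05). Cd79b fell from 7.85, 7.95 and 7.31 to 6.86, 7.00 and 6.57, also with no overlap (-0.89 ± 0.24, adjusted p = 0.00875). These were 2 of 6 tested genes against 10% of all genes. The Cd79b call was lost without wild-type replicate 1 or 2 or knockout replicate 3 of A2, which left 1. The knockout effect on Blnk differed between A1 and A2 by 1.84 ± 0.43 (adjusted p = 0.00776), 1 of 6 genes against 1.66% of all genes. It was 2.25 (adjusted p = 0.00062) without replicate 3 of knockout A1, and the call was lost without replicate 2 of knockout A1 or replicate 3 of knockout A2.

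**Figure D2:**
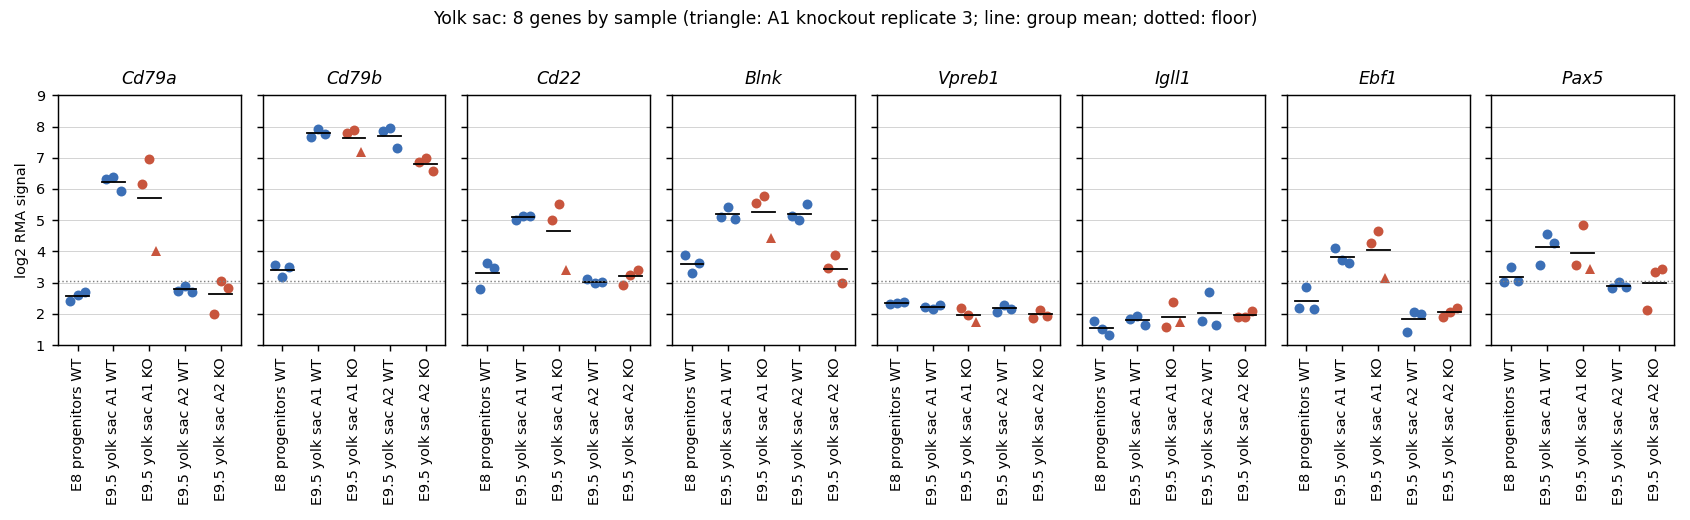
Log2 signal of the genes in E8 progenitors and in A1 and A2 of both genotypes, with a point for each sample and a line for each mean; the dotted line is the floor. Cd79a, Cd22, Ebf1 and Pax5 step up from E8 to A1 and stay low in A2, and replicate 3 of knockout A1 is the low point.

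Other B-cell genes rose from E8 to A1 too. Of 16 tested genes of the B-cell receptor complex and surface, 15 rose from E8 to wild-type A1 and Cd24a, a membrane glycoprotein of progenitor and immature cells, fell (list median 2.28 against -0.06 over all genes). Ms4a1, which encodes Cd20, rose by 2.71, Fcer2a (Cd23) by 2.16 and Cr2 (complement receptor) by 0.99; the 3 were chosen after their values were seen. Ms4a1 read 4.40, 4.52 and 4.71 in wild-type A1. The early lymphoid list gave 5 higher and 2 lower of 17, with Il7r, the interleukin-7 receptor, up by 3.79, while Dntt and Rag2, of antigen-receptor recombination, were below the floor in wild-type A1. The list of kinases and adaptors shared between B-cell receptor signalling and myeloid cells gave 17 higher of 18 (median 3.35), and B-lineage transcription factors 11 higher and 1 lower of 16.

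Markers of other cell types were measured alongside. Of 15 tested T and NK cell genes 8 rose from E8 to A1, and their mean ran from 3.46 to 4.40 in wild-type A1 against 2.50 to 2.81 at E8, with 13 of 15 group means above the floor in A1. In knockout A1 that mean was 3.31, 3.08 and 2.60, with 6 of 15 genes above the floor, and Gzma and Thy1 fell (-2.32 and -1.58). The 18 neutrophil granule genes gave 8 higher and the 10 erythroid genes 10 lower from E8 to A1. The mature B-cell list itself averaged 5.93 to 6.10 in wild-type A1, and 5.75, 6.21 and 4.83 in the 3 knockout samples. Their part in the A1 results was not tested.

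The knockout also moved list genes in A1, where 3.36% of all genes were called. The mature B-cell list gave 0 higher and 1 lower (Cd53, a tetraspanin, -1.22), the early lymphoid list 1 higher (Akap12, a scaffold protein, 1.08) and 1 lower (Flt3, a progenitor receptor, -2.30). The B-lineage transcription factors gave 1 lower (Tcf3, an E protein, -0.71), and the erythroid list 4 lower, among them Gata1 (-1.41), Epor (-1.33) and Rhag (-1.24). Flt1 (1.21) of the endothelial list and Apoa1 (1.14) of the hepatocyte list were higher.

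In the CD11bhigh gate of the adult liver the B-lymphoid genes were higher without Irf8. All 6 tested genes were called higher in knockout than in wild type, against 9.19% of all genes called higher. The median change was 1.24, against -0.02 over all genes. Cd79a read 4.36, 4.60 and 5.02 in wild type and 5.43, 7.48 and 7.26 in knockout. This was 4.17-fold higher (2.06 ± 0.44 in log2, adjusted p = 0.000224). Cd79b read 7.15, 6.87 and 6.78 against 7.35, 8.63 and 8.10, higher by 1.10 ± 0.24 (adjusted p = 0.000446). In both chains replicate 1 of the knockout was the lowest of its group.

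Blnk read 4.55, 5.11 and 5.09 in wild type and 6.29, 7.04 and 7.47 in knockout, 4.05-fold higher (2.02 ± 0.30, adjusted p = 2.55e-07). Cd22 read 5.55, 5.79 and 6.01 against 6.40, 6.80 and 7.09 (0.98 ± 0.33, adjusted p = 0.0316). Ebf1, under the floor in wild type at 2.60, 2.65 and 2.26, read 3.38, 4.11 and 4.20 in knockout, a mean 0.85 above the floor (fitted difference 1.39 ± 0.32, adjusted p = 0.000799). Pax5 read 3.02, 3.26 and 2.61 against 3.06, 4.30 and 3.96, with overlapping samples and a wild-type mean under the floor (0.81 ± 0.29, adjusted p = 0.0481). Calls for Cd22 and Pax5 were lost in some of the alternatives: Cd22 was called in 9 of 13 (adjusted p 0.00464 to 0.154) and Pax5 in 5 of 12 (0.00642 to 0.331). Cd22 lost its call without wild-type replicates 1 or 2 or knockout replicates 2 or 3. Pax5 lost it without wild-type replicates 1 or 3 or knockout replicates 2 or 3.

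The Kupffer gate, from the same organ and stage, had 2 of 6 genes called, against 11.9% of all genes. Blnk rose from 5.68, 5.32 and 5.94 to 7.59, 6.99 and 6.95 (1.53 ± 0.30, adjusted p = 0.00019), and Pax5 from 4.15, 3.65 and 4.55 to 5.58, 5.04 and 4.57 (0.95 ± 0.29, adjusted p = 0.0237), both without overlap. Cd79a read 5.40, 6.38 and 7.39 in wild type and 7.09, 7.18 and 7.60 in knockout, an overlapping difference of 0.90 ± 0.44 (adjusted p = 0.186). Cd79b differed by 0.52 (adjusted p = 0.164), Ebf1 by 0.87 (adjusted p = 0.0685) and Cd22 by -0.40 (adjusted p = 0.501). Replicate 3 of the wild type was the highest Kupffer sample of its group for all 6 genes. Without it 5 genes were called, adding Cd79a (1.40, adjusted p = 0.0377), Cd79b (0.83, adjusted p = 0.0251) and Ebf1 (1.11, adjusted p = 0.0276). Leaving out wild-type replicate 1 or 2, or knockout replicate 1 or 2, left 1 call each.

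**Figure D3:**
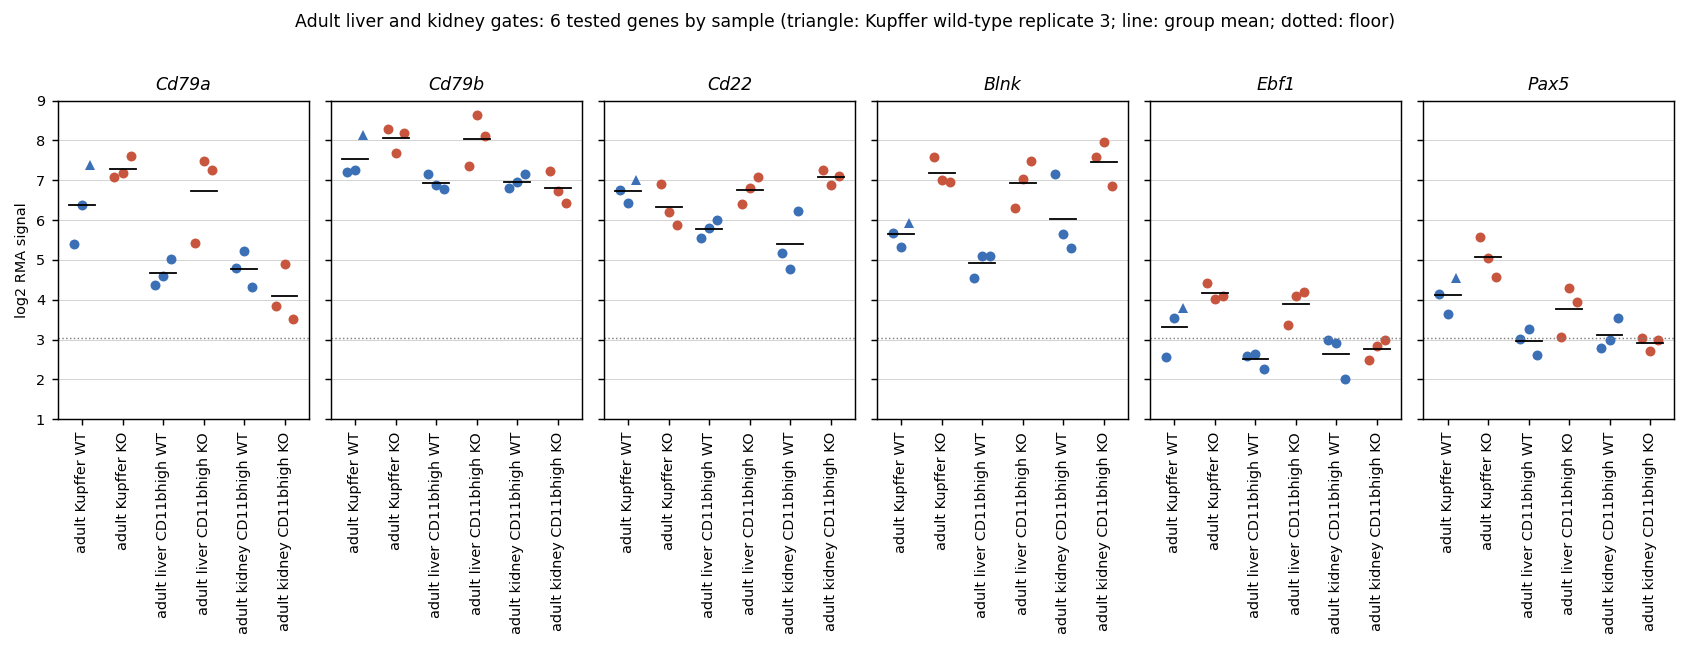
Log2 signal of the genes in adult liver CD11bhigh cells, adult Kupffer cells and adult kidney CD11bhigh cells of both genotypes, with a point for each sample and a line for each mean. In the liver CD11bhigh gate the knockout samples lie above the wild-type samples for Cd79a, Cd79b, Cd22, Blnk and Ebf1, with overlap for Pax5.

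Between the liver gates, wild-type CD11bhigh cells held less signal than Kupffer cells for Cd79a (-1.73 ± 0.44, adjusted p = 0.0013), Pax5 (-1.16 ± 0.29, adjusted p = 0.00145) and Cd22 (-0.94 ± 0.33, adjusted p = 0.0259). That was 3 of 6, against 12.7% of all genes called lower, and it was 5 without wild-type Kupffer replicate 2 and 2 without replicate 3, where Cd79a was at -1.23. In that wild-type comparison 14 of 16 endothelial and 11 of 12 hepatocyte genes were lower too, and 5 of 15 T and NK genes, Cd3e among them, were lower and 5 higher. Their part was not tested. In the knockout the 1 gene called was Pax5 (-1.29 ± 0.29, adjusted p = 0.000223), against 39.7% of all genes in either direction. All 4 sex-linked genes were called there, 3 higher and Xist lower, so the knockout gates differed in sex-linked genes as well, and in the difference of effects below this cannot be told apart from the gate. The knockout effect differed between the gates for Cd22 alone, by 1.38 ± 0.47 (adjusted p = 0.0387), 1 of 6 against 13.3% of all genes. That call was lost when any of 8 of the 12 samples was left out: replicates 1 and 2 of wild-type and 2 and 3 of knockout CD11bhigh cells, and replicates 1 and 3 of wild-type and 2 and 3 of knockout Kupffer cells. Without replicate 1 of knockout CD11bhigh cells the count was 2.

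The liver CD11bhigh gate was also compared between ages. In wild type, 3 of 6 genes were higher at 6 weeks than at E14, against 14% of all genes, namely Cd79a (1.66), Cd22 (1.49) and Blnk (0.78). In knockout all 6 were higher, against 8.65%, including Blnk by 3.43 ± 0.30 (adjusted p = 1.84e-14) and Cd22 by 3.10 ± 0.33 (adjusted p = 2.33e-11). Cd79a was under the floor at E14 and at least 3.68 higher in the adult (fitted 4.01 ± 0.44, adjusted p = 3.32e-11). At E14 the same gate had Cd79b lower in knockout, with 7.68, 7.47 and 7.40 in wild type and 6.17, 5.65 and 6.09 in knockout (-1.55 ± 0.24, adjusted p = 1.84e-06). This was 1 of 6 genes against 14% of all genes. The knockout effect differed between ages for 4 of 6 genes, against 14.5% of all genes: Cd79b and Blnk (both 2.64), Cd79a (2.35) and Cd22 (1.61).

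In adult kidney CD11bhigh cells 2 of the genes rose in the knockout. Cd22 read 5.18, 4.77 and 6.22 in wild type and 7.26, 6.88 and 7.12 in knockout, without overlap (1.69 ± 0.33, adjusted p = 0.000167). Blnk read 7.15, 5.66 and 5.30 against 7.57, 7.96 and 6.86, with overlap (1.43 ± 0.30, adjusted p = 0.000436). This count of 2 of 6 compares with 13.6% of all genes. With only these groups in the fit both calls were lost (adjusted p = 0.078 for Cd22 and 0.249 for Blnk). Cd79a read 4.79, 5.22 and 4.31 against 3.85, 4.89 and 3.52, and was not called (-0.69 ± 0.44, adjusted p = 0.336).

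Within the knockout, Cd79a was 2.64 ± 0.44 higher in liver than in kidney CD11bhigh cells (adjusted p = 3.57e-06), Cd79b 1.23 ± 0.24 (adjusted p = 7.82e-05), Ebf1 1.12 ± 0.32 (adjusted p = 0.00772) and Pax5 0.85 ± 0.29 (adjusted p = 0.0297). These were 4 of 6 genes against 11.7% of all genes called higher, and 2 without replicate 3 of knockout liver cells, where Ebf1 and Pax5 were lost. The knockout effect differed between the organs for Cd79a (2.75 ± 0.62, adjusted p = 0.00164) and Cd79b (1.27 ± 0.34, adjusted p = 0.0104), 2 of 6 against 9.46% of all genes. It was 4 without replicate 1 of knockout liver cells and 1 without replicate 2.

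Genes of the other B-lineage lists also rose in knockout adult liver CD11bhigh cells. These lists are not exclusive to B cells, and Ly6d and Spib are in the plasmacytoid dendritic cell list too. Of 16 mature B-cell genes 8 were higher and 1 lower (median 0.73 against -0.02 over all genes), led by Ms4a1 (2.98, adjusted p = 1.22e-10), Ly6d, a marker of B-lymphoid progenitors (2.83), and Cd81, a tetraspanin (2.71). Ms4a1 read 2.11 (under the floor), 3.19 and 3.58 in wild type and 5.41, 6.09 and 6.31 in knockout. Its wild-type mean lay under the floor, so the fitted Ms4a1 difference also depends on signal near background. The early lymphoid list gave 3 higher and 2 lower of 17, with Dntt, the terminal transferase, 2.74 higher (adjusted p = 3e-18), Kit 2.13 higher and Lef1, a lymphoid transcription factor, 1.26 lower (log2 change -1.26). The Dntt samples were 4.29, 4.96 and 4.74 in knockout and between 1.80 and 2.09 in wild type. The wild-type samples were all under the floor, so the fitted Dntt difference depends on signal near background. Of the 16 B-lineage transcription factors 4 were higher and 2 lower, including Myb (4.50), Spib (1.67) and Pou2f2 (-1.13).

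Of the genes that B-cell receptor signalling shares with myeloid cells, 1 of 18 was higher (Blk, a kinase of B cells, 1.19) and 6 lower, with Dapp1 (-0.99) and Syk (-0.66) among them. The list median was -0.32. Blnk, an adaptor of the same pathway, was higher. The 7 plasma cell genes gave 4 higher and 1 lower, with Sdc1 (1.92) and Mzb1 (1.58) up and Prdm1 (-1.38) down.

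Marker genes of other cell types moved in the same gate. Of 18 neutrophil granule genes 14 were higher and 0 lower (median 4.25), with Elane (7.36), Fcnb (6.28) and Cxcr2 (4.54) leading, and the list averaged 5.44 to 6.79 in wild type and 9.77 to 10.08 in knockout. Of 11 plasmacytoid dendritic cell genes 8 were higher and 2 lower (median 1.56), among them Cox6a2 (2.84) and Siglech (2.83), with list means of 4.15 to 4.43 and 5.12 to 5.86. Ly6d and Spib are among those 8 and also count in the B-lineage lists above. T and NK genes gave 0 higher and 1 lower of 15 (Cd3g, -2.15). Tfrc, the transferrin receptor, rose by 1.98 and Gata1 fell by 0.77; Flt1 (-2.21) and Eng (-1.09) fell and Egfl7 (0.80) rose among the endothelial genes. Hepatocyte genes gave Mup20 higher (1.69) and Fga (-1.19) and Alb (-1.27) lower. The part of these shifts in the rise of the B-lymphoid genes was not tested.

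In adult Kupffer cells the mature B-cell list gave 4 higher and 2 lower of 16 (median 0.29), with Cr2 (1.69) and Tnfrsf13c, the BAFF receptor (1.64), up and Cd180 (-1.90) down. The early lymphoid list gave 5 higher and 1 lower of 17, including Cd93 (1.49), Kit (1.41) and Flt3 (-1.54). B-lineage transcription factors gave 4 higher and 1 lower, among them Spib (1.42), Pou2af1 (1.29), Mef2c (1.15) and Tcf3 (0.95). The shared signalling list gave 1 higher and 6 lower, with Dapp1 (-1.30), Btk (-1.19) and Inpp5d (-0.64) down.

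Endothelial genes were higher in knockout Kupffer cells in 15 of 16 cases (median 2.00), led by Clec14a (2.89), Kdr (2.87) and F8 (2.84). Their list mean was 4.92, 4.78 and 6.43 in wild-type replicates 1, 2 and 3 and 7.12 to 7.63 in knockout, so replicate 3 of the wild type stood apart in these genes as well. Mup20, a hepatocyte gene, fell by 4.97, and in the other lists Cd2 (1.48), Cd3e (1.44) and Mmp9 (2.06) were higher and Csf3r (-1.39), Klk1 (-1.77) and Tfrc (-1.58) lower. Of 4 sex-linked genes 1 was higher and 3 lower: Xist read 9.52 to 9.99 in knockout and 2.71 to 3.88 in wild type, while Uty (-3.50) and Kdm5d (-3.36) fell. The sex-linked difference and the genotype cannot be told apart in this gate, whereas 0 of the 4 genes were called in adult liver CD11bhigh cells or in A1. The part of the endothelial difference was not tested.

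**Figure D4:**
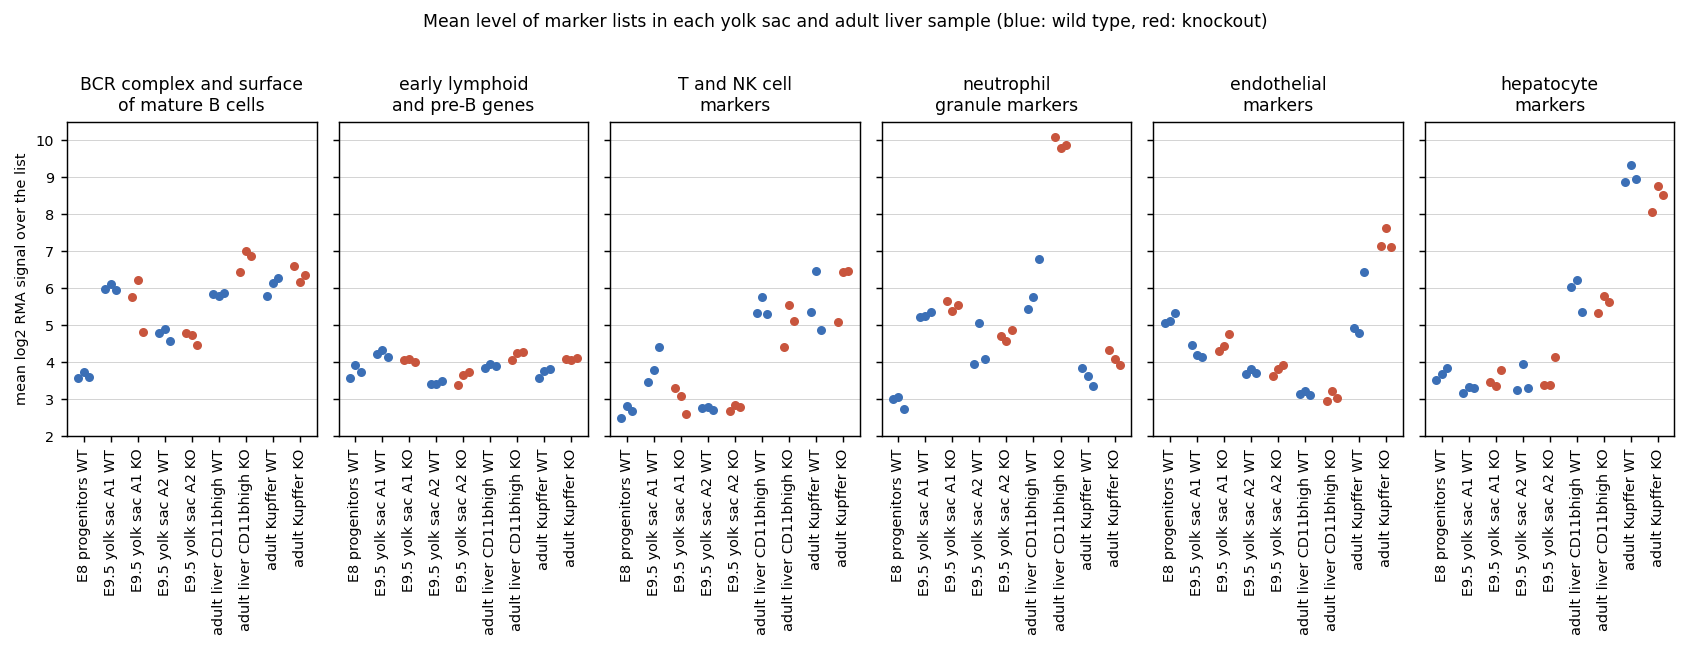
Mean log2 signal of 6 marker lists in each sample of E8, A1, A2 and the adult liver gates, with a point for each sample. The mature B-cell list is high in A1 and higher in knockout than in wild-type liver CD11bhigh cells, where the neutrophil list rises from at most 6.79 to at least 9.77.

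At E14 the genes moved in opposite ways within a population. In E14 Kupffer cells Cd22 fell from 5.65, 5.59 and 5.77 in wild type to 3.55, 3.93 and 4.73 in knockout (-1.60 ± 0.33, adjusted p = 0.000173). Blnk fell from 6.66, 6.30 and 6.78 to 5.80, 5.16 and 5.14 (-1.21 ± 0.30, adjusted p = 0.0016). Ebf1 rose from 2.43, 1.60 and 2.27, under the floor, to 2.57, 3.79 and 4.29, a mean 0.51 above the floor (fitted difference 1.45 ± 0.32, adjusted p = 0.000427). The knockout sample at 2.57 was itself under the floor. These were 3 of 6 genes, against 23% of all genes.

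Genes of the early lymphoid list were higher in the same knockout E14 Kupffer cells as Ebf1. Of 17 tested genes 11 were higher and 0 lower (median 0.98 against 0.03 over all genes). The 11 included the progenitor receptors Kit and Flt3, with Cd93, Sox4 and Notch1. Dntt, Vpreb3 and Lef1 were not called. Rag2, of the recombinase, read 2.55, 2.64 and 2.06 in wild type, all under the floor, and 4.29, 4.80 and 5.63 in knockout (fitted 2.49 ± 0.28, adjusted p = 2.65e-10). Il7r read 2.23, 3.03 and 3.66 against 5.77, 6.85 and 7.28 (3.66 ± 0.44, adjusted p = 1.68e-09); both genes were chosen after their values were seen. Cd79a and Pax5 were not called there (0.46 and 0.21), and mature B-cell genes gave 2 higher and 3 lower of 16. The labelled population itself differed, with Clec4f at 7.98 in wild type and 4.66 in knockout and Kit at 5.71 and 7.84. Endothelial genes gave 5 higher and 1 lower of 16, neutrophil genes 4 higher of 18 and plasmacytoid dendritic cell genes 3 higher of 11. T and NK genes gave 4 higher of 15, erythroid genes 5 lower of 10 and hepatocyte genes 1 higher and 4 lower of 12. The part of these shifts in the result was not tested.

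In E14 microglia Blnk fell from 8.92, 9.01 and 8.89 to 7.37, 6.70 and 6.70 (-2.02 ± 0.30, adjusted p = 5.38e-07), and Ebf1 rose from 2.22, 2.76 and 3.02 to 4.06, 4.22 and 3.17 (1.15 ± 0.32, adjusted p = 0.00879). These were 2 of 6 genes, against 14.3% of all genes. Wild-type Ebf1 was under the floor, and its call was lost without wild-type replicate 1 or knockout replicate 1 or 2, which left 1. Tmem119 averaged 7.79 in wild type and 5.89 in knockout. The early lymphoid list gave 6 higher and 0 lower of 17 there (median 0.32), and the mature B-cell list 2 higher and 3 lower of 16. Neutrophil granule genes gave 13 higher and 1 lower of 18 (median 2.65), and the part of these shifts in the result was not tested.

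In adult microglia Cd79b and Blnk were lower in the knockout. Cd79b read 6.98, 7.06 and 6.90 in wild type and 5.29, 4.61 and 5.53 in knockout (-1.83 ± 0.24, adjusted p = 1.42e-08). Blnk read 9.67, 9.81 and 9.86 against 8.83, 8.69 and 9.12 (-0.90 ± 0.30, adjusted p = 0.0315). These were 2 of 6 genes against 14.6% of all genes. The Blnk call was lost, leaving 1, when any wild-type replicate or knockout replicate 1 or 2 was left out (8 of 13 alternatives called it, adjusted p 0.000627 to 0.128). Cd79a lay below the floor in both genotypes.

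In adult kidney F4/80high cells Cd22 fell from 4.62, 5.71 and 5.59 to 4.62, 3.93 and 3.87, with the lowest wild-type and highest knockout samples meeting (-1.16 ± 0.33, adjusted p = 0.0305), 1 of 6 genes against 3.56% of all genes. It was called in 7 of 13 alternatives (adjusted p 0.00671 to 0.299), and without replicate 2 or 3 of either genotype the count was 0. Blnk in these cells read 9.47, 9.10 and 9.13 in wild type and 9.32, 9.41 and 9.42 in knockout, with no call. No tested gene was called in Langerhans cells (27% of all genes), E14 kidney CD11bhigh cells (14%) or E14 kidney F4/80high cells (1.97%). In Langerhans cells the GFP+ label of the wild-type samples and the genotype cannot be told apart.

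Over the 13 populations with both genotypes, 21 of 78 tests of the 6 genes were called, 12 higher and 9 lower in knockout. This was 26.9%, against 12.9% of the same tests over all genes. Ebf1 gave 3 higher and 0 lower, Pax5 2 higher and 0 lower, and Cd79a 1 higher. Their wild-type means lay under the floor in 11, 9 and 6 of the 13 populations, where a fall could hardly be called. Cd79b (1 higher, 3 lower), Cd22 (2 higher, 2 lower) and Blnk (3 higher, 4 lower) were called in both directions, depending on the population. Ebf1 calls were in adult liver CD11bhigh cells, E14 Kupffer cells and E14 microglia.

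**Figure D5:**
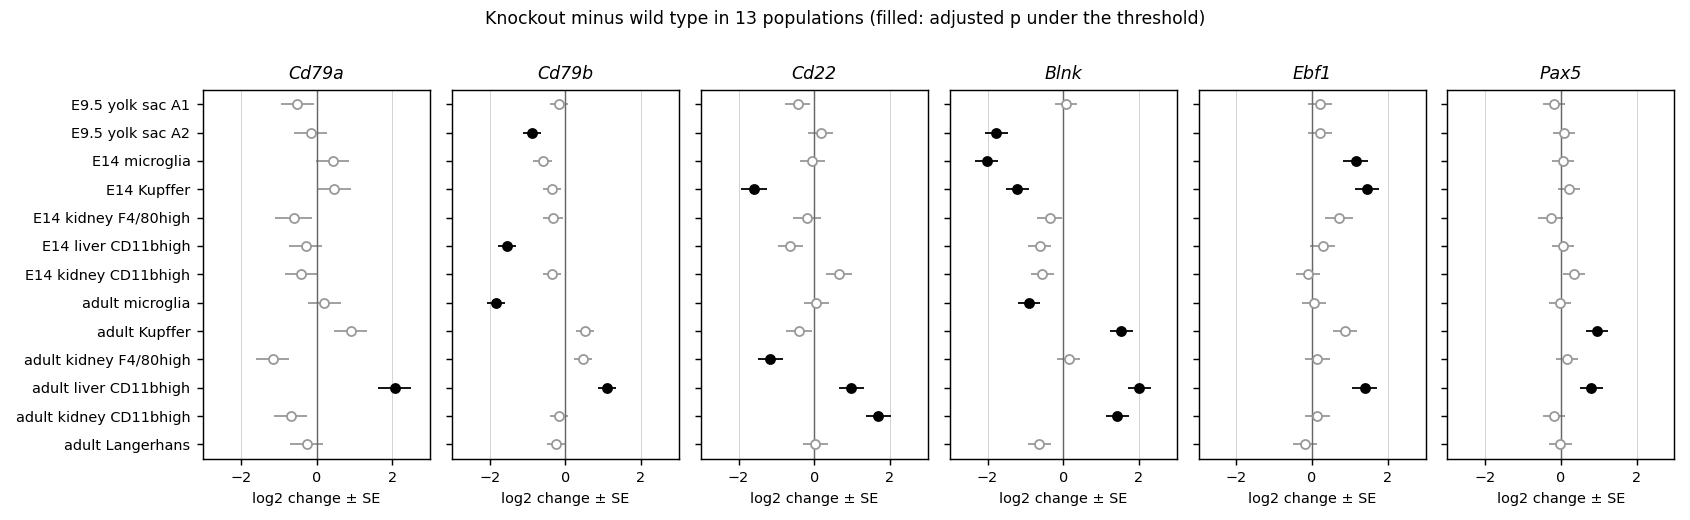
Knockout minus wild-type difference in log2 signal for the 6 tested genes in the 13 populations, with bars of 1 SE and filled points where the adjusted p was below 0.05. Calls are upward in adult liver CD11bhigh cells for all 6 genes, and downward for Cd79b and Blnk in adult microglia and A2.

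Across the 27 group means, Cd79a followed Ms4a1 and Pou2af1 (Pearson r 0.912 for both) and Fcmr (0.911) most closely, and Pax5 followed Fcmr (0.894), Car8 (0.879) and Vpreb3 (0.877). Ebf1 was nearest to Pou2af1 (0.758), Ms4a1 (0.742) and Fcmr (0.732). These correlations share the samples and arrays of the 27 groups and are descriptions only. Cd79b was nearest to Tmem229b (0.878), Rac2 (0.864) and Sash3 (0.840), Cd22 to AW112010 (0.862), Scarna10 (0.843) and Cd300e (0.842), and Blnk to Tgfbr1 (0.903), Smpd5 (0.896) and P3h3 (0.894). Below the floor throughout, Vpreb1 (0.684 to Zfp37) and Igll1 (0.660 to Tor1a) gave weaker likenesses. Among the genes themselves, Cd79a and Pax5 correlated at 0.84, Ebf1 and Pax5 at 0.77, Cd79a with Cd22 and with Ebf1 at 0.74 each, and Cd79a with Cd79b at 0.42.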

How the data were processed

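Deposited log2 values came from the authors' RMA normalization (Affymetrix Expression Console), as the submitters' processing notes record; no source used here gives versions or the build. Per the labels' protocols, tissue was digested with enzymes, with Percoll for brain, cells were sorted by FACS and RNA came from PicoPure columns.

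Of 41345 probes, 25335 were in the probe table, 23521 of them with 1 symbol and 1814 with several, and 16010 were not in it. The brightest probe stood for each gene. Array medians ran from 2.94 to 3.19, and array number limits precision.

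Genes were fitted with limma 3.58.1 (R 4.3.3) over 80 samples in 27 groups, 2 array runs of 1 sample averaged, with eBayes, an intensity trend and two-sided tests. The pipeline was tested on simulated data. In 3 knockout comparisons (adult liver CD11bhigh cells, adult Kupffer cells and A1), the named list genes are up to 3 most significant called per list. List genes named in other comparisons fall outside that rule. Genes, lists and rules were chosen with earlier results of these data known. Deviations of samples with the same replicate number correlated at -0.176 to 0.151 over 21 comparisons. Pairing was to be accepted where 3 pairs all exceeded 0.1, which 0 comparisons met. This does not exclude pairing.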

Additional observations from a re-analysis of the deposited data

Results flagged for a closer look

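The knockout effect (knockout minus wild type) differed by an interaction test between populations for 8 combinations of gene and contrast, with limma and adjustment over all genes. It was larger in adult liver CD11bhigh cells than in adult Kupffer cells for Cd22, by 1.38 on the log2 scale (adjusted p = 0.0387). Against adult kidney CD11bhigh cells it was larger in liver for Cd79a, by 2.75 (adjusted p = 0.00164), and for Cd79b, by 1.27 (adjusted p = 0.0104). Against the same liver gate at E14 it was larger in the adult for Cd79a by 2.35 (adjusted p = 0.00453), Cd79b by 2.64 (adjusted p = 1.67e-08), Cd22 by 1.61 (adjusted p = 0.0122) and Blnk by 2.64 (adjusted p = 2.96e-06). In yolk sac it was higher in A1 than in A2 for Blnk, by 1.84 (adjusted p = 0.00776). Groups of 3 were not tested for single outlying samples.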

How the results depend on the processing

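Over 2074 alternative values for single genes, 1933 kept their direction and their side of the threshold, 107 lost a call, 34 gained one and 0 reversed. Counts of called genes moved by over 1.5 times as follows. In adult Kupffer knockout minus wild type, the 2 genes became 1 with weighted arrays, with a fit restricted to the compared groups and with the floor at the 75th percentile, and 0 with the replicate block. In adult liver CD11bhigh minus Kupffer cells, the 3 wild-type genes became 6 with quantile normalization and the 1 knockout gene became 0 with the higher floor. With that floor, the 4 genes of wild-type A1 minus A2 and the 4 of knockout liver minus kidney each became 2. Ebf1 and Pax5 were not tested at that floor of 5.27, and 0 calls of the genes still tested were lost there. Each fall in count with the higher floor, in E14 microglia below as well, is therefore Ebf1 or Pax5 leaving the test. The differing knockout effects fell from 1 to 0 between the liver gates with array weights, compared groups, the replicate block and quantile normalization. Between liver and kidney they fell from 2 to 1 with weights, 0 with compared groups and 1 with the replicate block, and between A1 and A2 they rose from 1 to 2 with the block. Among the other populations, knockout minus wild type in adult kidney CD11bhigh cells fell from 2 to 0 and in kidney F4/80high cells from 1 to 0, both with compared groups alone and with the replicate block (Cd22 at 0.0941 and 0.299 and Blnk at 0.17 with the block). E14 liver CD11bhigh cells rose from 1 to 2 with array weights, E14 microglia fell from 2 to 1 with the higher floor, and Langerhans cells rose from 0 to 1 with compared groups. The cause of the other changes was not tested.

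Leaving out each sample in turn gave 4 to 6 genes in adult liver CD11bhigh knockout minus wild type, 1 to 5 in Kupffer cells and 0 to 0 in A1. It gave 2 to 5 in wild-type and 1 to 1 in knockout liver CD11bhigh minus Kupffer cells, 5 to 6 in A1 minus E8, 4 to 4 in wild-type and 3 to 6 in knockout A1 minus A2. Adult minus E14 liver gave 2 to 4 in wild type and 5 to 6 in knockout, and knockout liver minus kidney 2 to 4. Differing effects ranged over 0 to 2 (liver gates), 1 to 4 (organs), 3 to 5 (ages) and 0 to 1 (A1 and A2), and calls over the 13 populations over 19 to 24. No comparison met the rule for pairing samples by number, which does not exclude pairing. Each gene had 1 probe, so a second probe was not run. Groups of 3 and signals near the floor limit Ebf1, Pax5, Vpreb1 and Igll1.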
